A study of Mus musculus with 16 samples.

Results

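The interleukin-6 family is described here in left ventricles of mice with and without the M2 isoform of pyruvate kinase muscle (PKM2), before and after myocardial infarction (MI). The 10 genes were taken by name from the gene table, which lists 55492 genes: the cytokines Il6, Il11, Lif and Osm, the receptor chains Il6ra, Il11ra1, Lifr, Osmr and Il6st, and the feedback inhibitor Socs3. All 10 passed a filter on low values (a mean of at least 10 normalized counts over 16 libraries), as did 20576 genes in total. Il6, Lif and Osm passed through the infarcted libraries alone, as their means over the 10 other libraries were 6.68, 6.96 and 5.88 normalized counts.

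Cytokines of this family are small secreted proteins that bind a specific receptor chain and then share one signalling chain, gp130, the product of Il6st. IL-6 and IL-11 bind Il6ra and Il11ra1 and then pair gp130 with itself, LIF pairs gp130 with Lifr, and oncostatin M pairs it with Osmr. The assembled receptor activates JAK kinases and the transcription factor STAT3, which induces Socs3, and SOCS3 protein binds gp130 and damps the signal. In the heart the family is known for cardiomyocyte survival and growth signals and for its part in inflammation after injury.

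Transcripts were sequenced from the left ventricle of 16 male C57BL/6 mice aged 8 to 12 weeks, one library per mouse, to ask how loss of PKM2 alters the heart before and after MI. PKM2fl/fl mice carry loxP-flanked Pkm alleles and served as controls. PKM2-/- mice are global knockouts, made with a CMV-driven Cre that was later bred out, so the isoform was lost in every cell type and from early life. Each genotype had 2 mice without surgery (baseline), 3 mice 3 days after a sham operation and 3 mice 3 days after permanent ligation of the left anterior descending artery (MI). The tissue was whole left ventricle, so fewer cells of a type and less RNA per cell cannot be told apart.

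Promoter sequence is shown for Socs3, Il6 and Lif because these genes changed at least 2-fold after MI in both genotypes, as Osm also did. RefSeq windows (GRCm38.p6, the build known as mm10) matched 9 of the 10 members, all but Osm. Sequences are on the strand of the gene, 5′ to 3′, with capitals for matches on either strand to 2 motifs that do not overlap here: TTCNNNGAA, bound by STAT factors, and TGANTCA, bound by AP-1. The Il6 and Lif runs are the 250 bases before the annotated start, with the AP-1 motif in capitals. For Socs3 the STAT motif is shown with 10 bases on either side, since 1 Socs3 transcript annotated by GENCODE holds this stretch.
Socs3, chr11:117969502-117969530, minus strand: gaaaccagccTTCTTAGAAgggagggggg
Il6, chr5:30012864-30013113, plus strand: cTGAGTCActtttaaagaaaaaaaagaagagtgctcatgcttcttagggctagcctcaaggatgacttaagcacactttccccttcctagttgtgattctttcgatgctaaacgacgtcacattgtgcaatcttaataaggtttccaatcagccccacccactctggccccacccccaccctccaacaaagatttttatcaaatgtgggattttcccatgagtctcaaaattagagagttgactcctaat
Lif, chr11:4257318-4257567, plus strand: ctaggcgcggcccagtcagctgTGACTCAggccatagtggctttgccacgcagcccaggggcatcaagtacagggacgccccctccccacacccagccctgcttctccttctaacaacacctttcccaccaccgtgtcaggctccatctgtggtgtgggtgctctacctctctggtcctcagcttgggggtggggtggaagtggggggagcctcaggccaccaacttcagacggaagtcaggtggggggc

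The STAT motif lay 154 to 146 bases before the Socs3 start and was found in no other member window, while 7.02% of all 32851 windows of 250 bases held one. The shares are per window, and the 9 members had 12 windows, so a member with 2 starts could match at either. The AP-1 motif, held by 6.75% of all windows, was found for 3 members: Il6 at 249 to 243 bases, Lif at 228 to 222 bases and Il11 at 98 to 92 bases before 1 of its 2 annotated starts. These are matches of letters, not measured binding sites.

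Sequencing gave 20623769 to 71855101 reads on genes per library. Of these, 15.8% to 46.1% fell on 6 loci called here loci that share sequence with ribosomal RNA. They include mt-Rnr1 and mt-Rnr2, the mitochondrial ribosomal RNA genes themselves. These 2 had means of 2277200 and 4705300 normalized counts in PKM2fl/fl sham hearts, against 246780 for the locus CT010467.1. After MI in that genotype the means were 2585300 and 4315600 against 7183900. Pkm itself read 7779 to 12076 normalized counts in the PKM2fl/fl libraries and 10120 to 16113 in the PKM2-/- libraries; the count joins both isoforms and so does not check the deletion. Normalized counts are reads divided by a size factor, and 1 read was worth 0.49 to 1.83 of them. In the text a gene is called differentially expressed when its adjusted p in limma was under 0.05 and its change at least 2-fold, and "rose" or "fell" needs the adjusted p only. All folds are on the log2(normalized count + 1) scale. The added count of 1 shrinks differences between low values. Differences are taken between means of logs, so their folds can lie above or below those of the group means.

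After MI 4 of the 10 members were differentially expressed in PKM2fl/fl hearts and 7 of 10 in PKM2-/- hearts. Il6, Lif, Osm and Socs3 were higher in both genotypes, whereas the receptor chains split, with Il6ra and Il6st higher and Lifr and Il11ra1 lower. Of all genes tested 23.5% were differentially expressed in PKM2fl/fl hearts, 12.4% higher and 11.1% lower. In PKM2-/- hearts 28.8% were, 14.5% higher and 14.3% lower, and of the members 6 were higher and 1 lower. Since Il6, Lif and Osm passed the filter only through the MI libraries, they had to be higher there, and nothing is read from the members' counts or medians against those of all genes. By adjusted p alone 6 members rose and 2 fell in PKM2fl/fl hearts, against 50.1% of all genes (24.8% rose, 25.3% fell). Among PKM2-/- hearts 8 rose and 2 fell, against 56.8% of all genes (28.7% rose, 28.1% fell). The median member difference was 0.83 and 1.37 on the log2 scale in PKM2fl/fl and PKM2-/- hearts, with medians over all genes of -0.0025 and 0.01.

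Il6, the cytokine that names the family, was nearly absent from sham hearts and plain in every MI heart. The 3 PKM2fl/fl sham libraries held 2.35, 6.16 and 2.94 normalized counts, and the 3 MI libraries held 297, 113 and 263. In PKM2-/- hearts the sham libraries held 0, 7.84 and 47.5 and the MI libraries 606, 330 and 261. No sham library reached any MI library, and PKM2-/- sham 3 stood well above the other 5 sham libraries. The difference was 5.51 ± 0.94 (SE) on the log2 scale in PKM2fl/fl hearts (adjusted p = 0.000192) and 5.64 ± 0.94 in PKM2-/- hearts (adjusted p = 0.000116). In PKM2-/- hearts it moved between 4.18 and 6.98 over the alternative settings. Group means went from 3.82 to 224 in PKM2fl/fl and from 18.4 to 399 in PKM2-/- hearts. By these means the fold was smaller than on the log2 scale in PKM2-/- hearts and larger in PKM2fl/fl hearts.

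Lif, a cytokine known for its protective effect on cardiomyocytes, read 4.70, 10.3 and 6.37 normalized counts in PKM2fl/fl sham hearts and 141, 51.4 and 85.1 after MI. In PKM2-/- hearts sham values of 3.22, 9.14 and 6.47 stood against 126, 131 and 77.9 after MI. The groups did not overlap in either genotype. The log2 difference was 3.47 ± 0.51 (adjusted p = 5.39e-05) in PKM2fl/fl and 4.01 ± 0.51 (adjusted p = 9.93e-06) in PKM2-/- hearts.

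Osm encodes oncostatin M, which leukocytes secrete. Its sham values were 3.52, 8.21 and 2.94 normalized counts in PKM2fl/fl hearts and 12.9, 10.4 and 10.8 in PKM2-/- hearts, and its MI values were 49.5, 24.6 and 45.7 and then 62.4, 41.9 and 28.9. The MI libraries of the genotypes overlapped, while the PKM2-/- sham libraries all lay above the PKM2fl/fl sham libraries. Osm rose by 2.84 ± 0.43 on the log2 scale in PKM2fl/fl (adjusted p = 6.96e-05) and by 1.81 ± 0.43 in PKM2-/- hearts (adjusted p = 0.00215).

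Il11, a cytokine linked to fibroblast activation, varied widely within groups. PKM2fl/fl hearts held 8.22, 20.5 and 12.3 normalized counts after sham and 49.5, 6.43 and 39.3 after MI, and PKM2fl/fl MI 2 lay below every sham library of its genotype. PKM2-/- hearts held 6.43, 13.1 and 6.47 after sham and 31.6, 57.2 and 14.4 after MI, without overlap. The difference did not pass in PKM2fl/fl hearts (0.84 ± 0.67, adjusted p = 0.319) and passed in PKM2-/- hearts (1.74 ± 0.67, adjusted p = 0.0376). These calls rest on single libraries. Without PKM2fl/fl MI 2 the PKM2fl/fl difference was 1.71 (adjusted p = 0.0237), and the PKM2-/- call was lost without PKM2-/- sham 1 (adjusted p = 0.0984), sham 3 (0.0988), MI 1 (0.0813) or MI 2 (0.161), and with the replicate block (0.0532).

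PKM2fl/fl MI 2 was the lowest MI library of its genotype for all 4 cytokines and Socs3. It also had the lowest summed level of 8 neutrophil markers among those 3 libraries, 1329 against 2354 and 2310 normalized counts. The share of its reads on loci that share sequence with ribosomal RNA was the lowest of the 3 too, 19.8% against 43.8% and 44.7%. The part of this share in its low values was not tested. Leukocyte, fibroblast and cardiomyocyte markers moved with every MI result, and their part in the results was not tested. The 8 ventricular cardiomyocyte markers all fell in both genotypes, their sum going from 1202740 to 1333840 after sham down to 237854 to 530490 after MI in PKM2fl/fl hearts, and from 1046660 to 1332930 down to 227352 to 294225 in PKM2-/- hearts. All 8 monocyte and macrophage markers rose in both genotypes, with sums of 6246 to 11736 after sham and 23046 to 40702 after MI in PKM2fl/fl, and 8992 to 10577 and 34610 to 37494 in PKM2-/- hearts. Of the 8 neutrophil markers 6 were tested and 3 rose in each genotype, with sums of 231 to 1383 and 1329 to 2354 in PKM2fl/fl, and 1046 to 1339 and 3785 to 4915 in PKM2-/- hearts. Of the 8 fibroblast markers 5 rose and 1 fell in each genotype, with sums of 20087 to 34060 after sham and 112147 to 122416 after MI in PKM2fl/fl, and 21465 to 34394 and 91293 to 130708 in PKM2-/- hearts. The cardiomyocyte markers remained the most abundant of these lists in every group, no list had a marker at 0 in all libraries, and the label of ventricular tissue held.

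**Figure D1:**
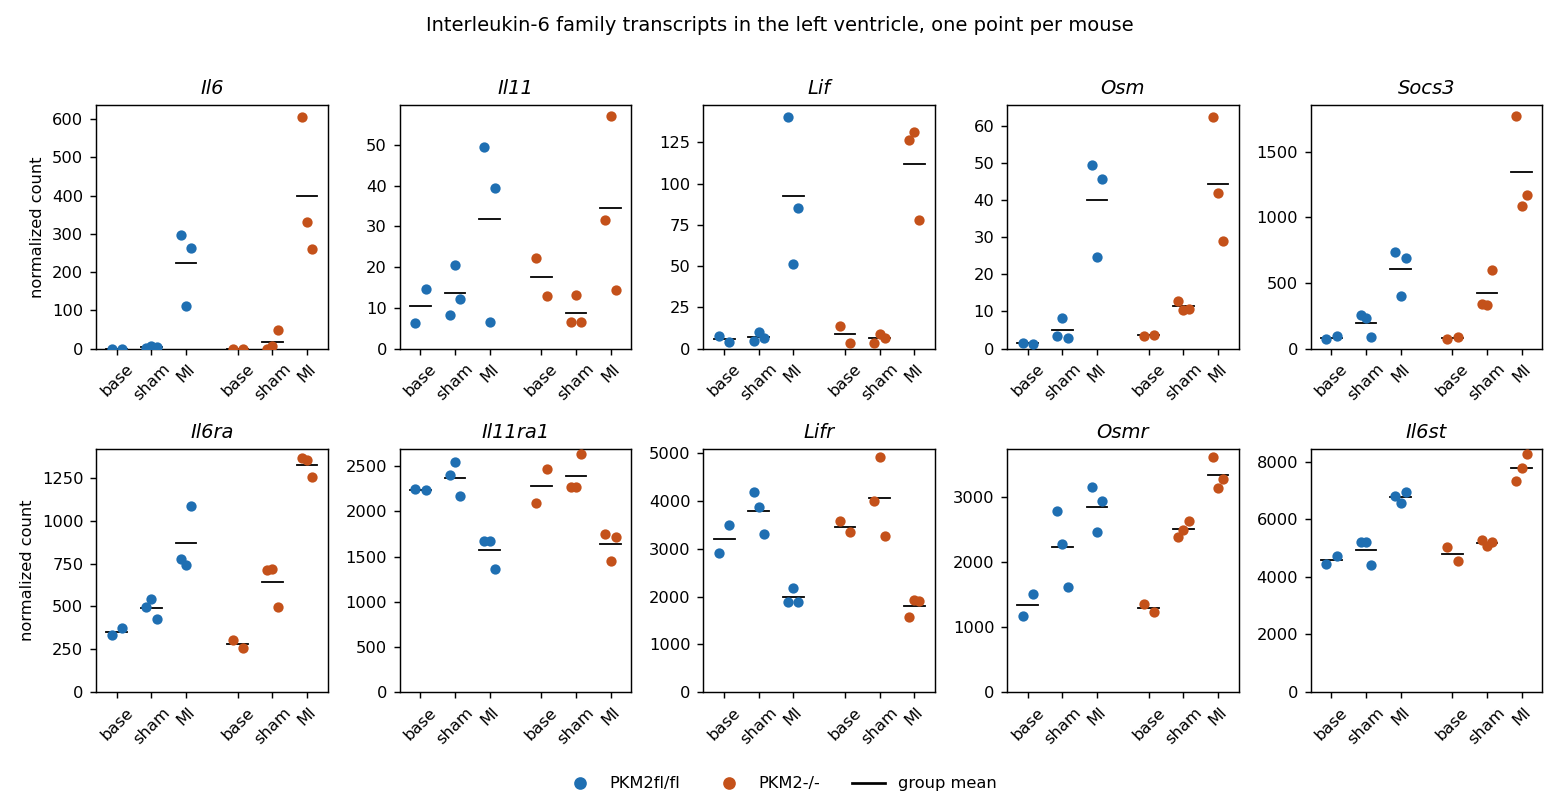
Normalized counts (vertical axes, each from 0) of the 10 members in 6 groups, with one point per mouse and a bar at the group mean; blue points are PKM2fl/fl and orange points PKM2-/- hearts. Il6, Lif, Osm and Socs3 were highest after MI in both genotypes, Lifr and Il11ra1 were lowest after MI, and Osmr was already above baseline after sham surgery.

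Among the receptor chains, Il6ra, which binds IL-6 before gp130 is engaged, read 496, 541 and 428 normalized counts in PKM2fl/fl sham hearts and 774, 745 and 1086 after MI. The PKM2-/- sham hearts read 711, 717 and 497 and the MI hearts 1366, 1353 and 1257. MI libraries lay above sham libraries in both genotypes. Il6ra rose by 0.81 ± 0.16 on the log2 scale (adjusted p = 0.000659), under 2-fold, in PKM2fl/fl and by 1.06 ± 0.16 (adjusted p = 4.92e-05) in PKM2-/- hearts, where it fell under 2-fold (0.89) without PKM2-/- sham 3.

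Il6st, the shared signalling chain, varied little within groups. It read 5196, 5217 and 4407 normalized counts in PKM2fl/fl sham hearts against 6802, 6568 and 6942 after MI, and 5265, 5076 and 5199 in PKM2-/- sham hearts against 7314, 7766 and 8256. The rise was small and without overlap, at 0.46 ± 0.09 (adjusted p = 0.000719) and 0.58 ± 0.09 (adjusted p = 6.76e-05) on the log2 scale in PKM2fl/fl and PKM2-/- hearts.

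Lifr, the receptor chain for LIF, moved the other way from its ligand. It went from 4186, 3875 and 3311 to 1895, 2189 and 1886 normalized counts in PKM2fl/fl hearts and from 3998, 4929 and 3264 to 1576, 1933 and 1914 in PKM2-/- hearts. All MI libraries were below all sham libraries. Lifr fell by 0.93 on the log2 scale (SE 0.14, adjusted p = 7.99e-05) in PKM2fl/fl and by 1.15 (SE 0.14, adjusted p = 7.55e-06) in PKM2-/- hearts. Without PKM2fl/fl sham 3 the PKM2fl/fl difference passed 2-fold (-1.02).

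Il11ra1, the IL-11 binding chain, fell by 0.60 (SE 0.11, adjusted p = 0.000411) and by 0.55 (SE 0.11, adjusted p = 0.000691) in PKM2fl/fl and PKM2-/- hearts. Its PKM2fl/fl values went from 2403, 2549 and 2171 to 1671, 1672 and 1365 normalized counts, and its PKM2-/- values from 2270, 2274 and 2630 to 1751, 1452 and 1712. Il11ra1 shares its locus with Galt on the same strand and with 5 genes on the other strand, and it has a near-identical copy, Il11ra2, so its count is uncertain. When libraries were scaled to total reads, the median of all genes shifted by 0.52 in PKM2-/- hearts, and on that scale Il11ra1 differed by -0.03 (adjusted p = 0.936) and Lifr by -0.64 (adjusted p = 0.0869). Both still lay below that median. In PKM2fl/fl hearts the median shifted by -0.17, and Il6ra (0.64, adjusted p = 0.115) and Il6st (0.28, adjusted p = 0.549) no longer passed.

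Osmr, the oncostatin M receptor chain, differed little between sham and MI. Values were 2789, 2288 and 1627 normalized counts after sham and 3167, 2464 and 2941 after MI in PKM2fl/fl hearts, with overlap, and 2397, 2492 and 2633 against 3629, 3147 and 3281 in PKM2-/- hearts, without overlap. The difference was 0.38 ± 0.16 (adjusted p = 0.0603) and 0.42 ± 0.16 (adjusted p = 0.0369), and both calls rest on single libraries. The PKM2fl/fl difference passed without sham 1 (0.56, adjusted p = 0.00899) or MI 2 (0.48, adjusted p = 0.0319), and the PKM2-/- difference did not pass without any 1 of sham 1, sham 2, sham 3, MI 1 or MI 3 (adjusted p from 0.0525 to 0.112). Baseline hearts stood apart from both, at 1177 and 1507 in PKM2fl/fl and 1365 and 1235 in PKM2-/- hearts.

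Socs3, the feedback inhibitor whose window holds the STAT motif, rose by 1.74 ± 0.36 on the log2 scale in PKM2fl/fl (adjusted p = 0.000887) and by 1.69 ± 0.36 in PKM2-/- hearts (adjusted p = 0.000903). PKM2fl/fl values were 258, 233 and 89.7 normalized counts after sham and 739, 399 and 688 after MI. PKM2-/- values were 338, 333 and 599 after sham and 1769, 1090 and 1169 after MI. In both genotypes every MI library was above every sham library, and the PKM2-/- libraries were above the PKM2fl/fl libraries in both states.

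**Figure D2:**
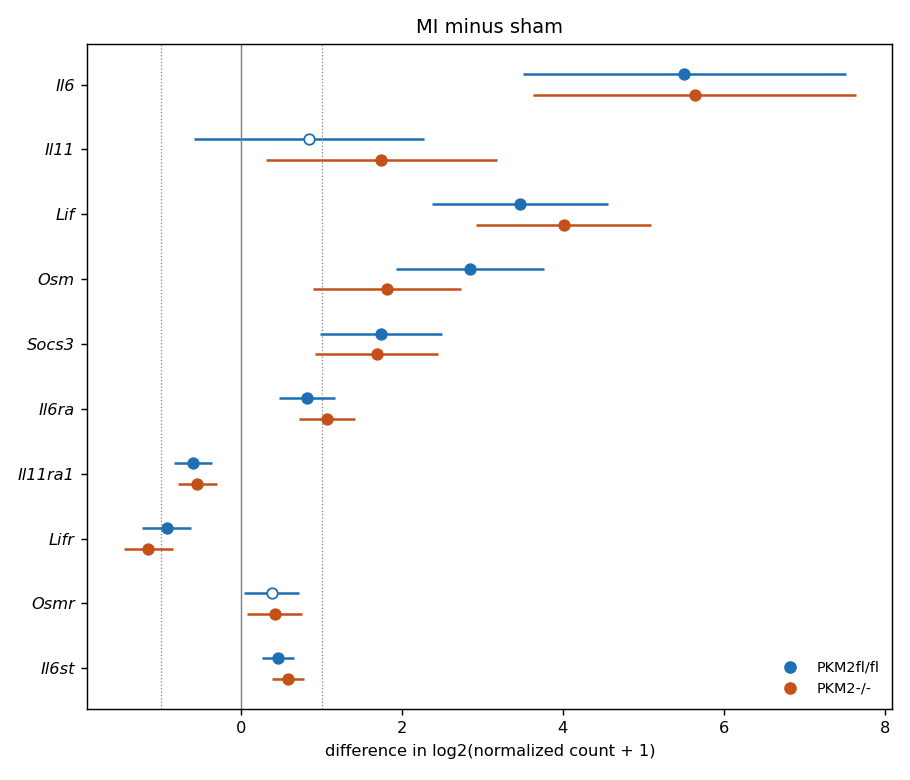
Difference between MI and sham hearts in log2(normalized count + 1) (horizontal axis) for each member, with 95% confidence intervals from limma; blue is PKM2fl/fl and orange PKM2-/-, filled points had an adjusted p under 0.05 and dotted lines mark a 2-fold change. The intervals of the genotypes overlap for every member, Il6 lies farthest right at 5.51 and 5.64, and Lifr farthest left at -0.93 and -1.15.

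Whether PKM2 loss altered the response to MI was asked through the difference between the MI effects. In limma no member passed, nor did any other gene (0% of 20576); filtered edgeR and voom also called 0 genes, DESeq2 36 and unfiltered edgeR 304. No member reached an unadjusted p under 0.05, which 8.28% of all genes did. The intervals are wide for the ligands, from -2.71 to 2.96 on the log2 scale for Il6 and from -2.33 to 0.27 for Osm, and narrower for Il6st, from -0.15 to 0.40, and Socs3, from -1.13 to 1.03. Both MI effects used the sham hearts of their own genotype, and the comparison of genotypes in sham hearts used both sets again.

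Between genotypes no member was differentially expressed or passed by adjusted p at baseline, after sham or after MI. The share of reads on loci that share sequence with ribosomal RNA also separated the genotypes, at 17.3% to 22.1% in PKM2fl/fl against 39.7% to 43.8% in PKM2-/- hearts at baseline and 15.8% to 27.8% against 28.6% to 46.1% after sham, and overlapped after MI (means of 36.1% and 27.1%). Its part in these comparisons was not tested. Few genes passed at all: 0.00972%, 0.00486% and 0.413% of those tested were differentially expressed, and 0.967% passed by adjusted p after MI. At an unadjusted p under 0.05, no member differed at baseline, 3 did after sham (Osm, Il6ra and Socs3) and 3 after MI (Il6ra, Il6st and Socs3), all higher in PKM2-/- hearts, against 3.64%, 9.95% and 17% of all genes.

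Socs3 was level at baseline, 72.2 and 95.5 normalized counts in PKM2fl/fl against 75.8 and 91.6 in PKM2-/- hearts. After sham and after MI the lowest PKM2-/- library lay above the highest PKM2fl/fl library. The PKM2-/- difference was 1.21 ± 0.36 (adjusted p = 0.23) after sham and 1.16 ± 0.36 (adjusted p = 0.119) after MI. DESeq2 on the recovered reads called the MI difference, 1.14 with an adjusted p of 0.0234. The neutrophil marker sum also separated the genotypes after MI, with every PKM2-/- library above every PKM2fl/fl library, but not after sham; 4 of 6 tested neutrophil markers had an unadjusted p under 0.05 after MI and none passed by adjusted p. Its part in the Socs3 difference was not tested.

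Il6ra lay lower in PKM2-/- hearts at baseline, 304 and 255 against 335 and 372 normalized counts, and higher after MI, 1257 to 1366 against 745 to 1086. The PKM2-/- difference was -0.34 ± 0.20 (adjusted p = 1) at baseline, 0.38 ± 0.16 (adjusted p = 0.445) after sham and 0.63 ± 0.16 (adjusted p = 0.0695) after MI. DESeq2 called the MI difference (0.61, adjusted p = 0.0157), as did the fit without PKM2fl/fl MI 3 (0.80, adjusted p = 0.00385). Il6st differed by 0.20 ± 0.09 after MI (adjusted p = 0.289), and Osm by 1.17 ± 0.43 after sham (adjusted p = 0.359). For the receptor chains Il11ra1, Lifr, Osmr and Il6st the 95% intervals of all 3 genotype differences lay between -0.46 and 0.58 on the log2 scale.

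Sham surgery alone moved part of the family in PKM2-/- hearts. Against baseline, Socs3, Il6ra and Osmr rose there, 2 of them differentially expressed. Over all genes 2.66% were differentially expressed, 2.06% higher, and 5.14% passed by adjusted p, 3.48% higher. No member passed in PKM2fl/fl hearts, against 0.17% of all genes differentially expressed and 0.19% by adjusted p, although 4 had an unadjusted p under 0.05 (Osm, Il6ra, Osmr and Socs3), as did 8.81% of all genes. Leukocyte markers moved in the same comparison. In PKM2-/- hearts all 6 tested neutrophil markers rose, and 3 of 8 monocyte and macrophage markers did, all 8 having an unadjusted p under 0.05, with sums of 4567 to 6202 at baseline and 8992 to 10577 after sham. In PKM2fl/fl hearts none of these passed by adjusted p in limma, all 6 and all 8 had an unadjusted p under 0.05, and the monocyte and macrophage sums were 4504 to 5608 and 6246 to 11736. Their part in the members' differences was not tested. Each baseline group had 2 mice.

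Socs3 went from 75.8 and 91.6 to 338, 333 and 599 normalized counts in PKM2-/- hearts, a rise of 2.27 ± 0.40 on the log2 scale (adjusted p = 0.00563; limma-voom gave an adjusted p of 0.0898). In PKM2fl/fl hearts it went from 72.2 and 95.5 to 258, 233 and 89.7, so that PKM2fl/fl sham 3 stayed within the baseline range, and the difference was 1.07 ± 0.40 (adjusted p = 0.386). Without that library the difference was 1.55 (adjusted p = 0.0332). PKM2fl/fl sham 3 had also the lowest neutrophil marker sum of the sham libraries, 231 against 1046 to 1383 in the other 5, and its part in the difference was not tested.

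Il6ra went from 304 and 255 to 711, 717 and 497 in PKM2-/- hearts (1.18 ± 0.18, adjusted p = 0.00258) and from 335 and 372 to 496, 541 and 428 in PKM2fl/fl hearts (0.46 ± 0.18, adjusted p = 0.429). Osmr rose by 0.95 ± 0.18 (adjusted p = 0.00777) in PKM2-/- hearts, without overlap, and not without baseline 2 of that genotype (adjusted p = 0.0773). Osmr differed in PKM2fl/fl hearts by 0.71 ± 0.18 (adjusted p = 0.13), and by 0.92 (adjusted p = 0.00824) without PKM2fl/fl sham 3. DESeq2 on the recovered reads passed the PKM2fl/fl difference with all libraries (0.73, adjusted p = 0.0143). Il6 had no read in any of the 4 baseline libraries, a level that allows up to 3 reads each, and Osm had 2 or 3 reads in each, so no fold against baseline is given for them. Whether the genotypes differ in their response to sham surgery was tested as well, after the values above were seen. The sham effect was larger in PKM2-/- hearts by 1.20 ± 0.57 for Socs3 (limma, unadjusted p = 0.0505, adjusted p = 0.792) and by 0.72 ± 0.26 for Il6ra (0.0128 and 0.632), and neither passed.

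**Figure D3:**
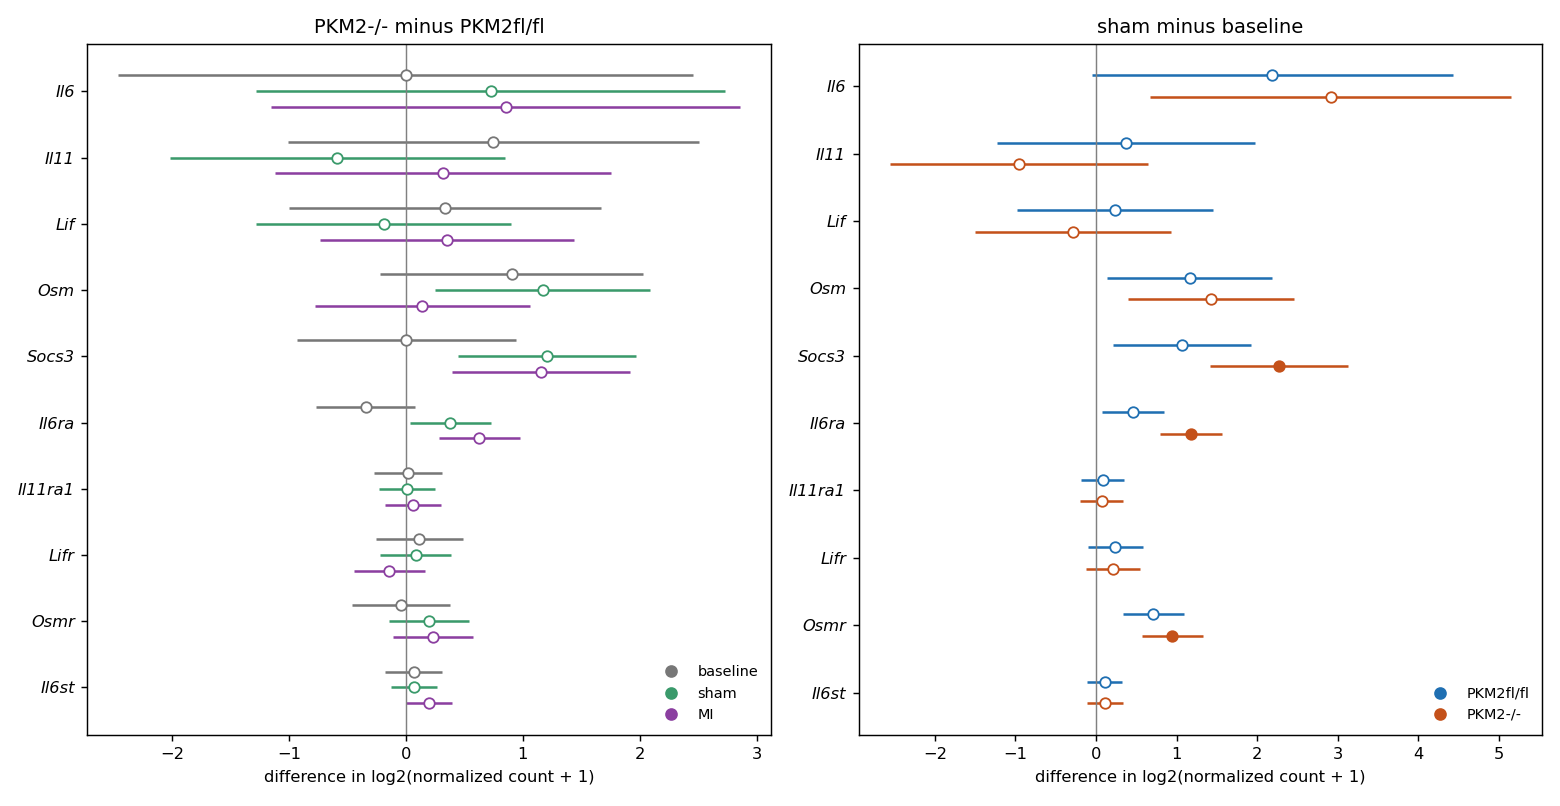
Differences in log2(normalized count + 1) (horizontal axes) with 95% confidence intervals from limma for each member: left, PKM2-/- minus PKM2fl/fl hearts at baseline (grey), after sham (green) and after MI (purple); right, sham minus baseline hearts in PKM2fl/fl (blue) and PKM2-/- (orange). Filled points had an adjusted p under 0.05, as did Socs3, Il6ra and Osmr after sham in PKM2-/- hearts; the points for Il6 and Osm at right depend on the added count of 1, since baseline hearts held 0 to 3 reads.

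Levels of different genes were compared per kilobase of the annotated canonical transcript. In PKM2fl/fl baseline hearts the order was Il11ra1 at 1084 normalized counts per kilobase, Il6st at 527 ± 21.5 (SD), Lifr at 322 ± 40.8, Osmr at 244 ± 42.4, Il6ra at 40.9 ± 3.03, Socs3 at 31.5 ± 6.19, and then the ligands Il11, Lif, Osm and Il6 at 5.36, 1.47, 0.637 and 0. No neighbours overlapped in that group of 2 mice. In these hearts every receptor chain was thus more abundant per kilobase than every ligand, and Il6ra was the scarcest chain. The Il11ra1 count is uncertain because of overlapping genes and the copy Il11ra2, so its rank here and after MI is uncertain too.

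After MI the order changed. In PKM2fl/fl hearts Il6st (780 ± 21.8) and Il11ra1 (759 ± 85.8) overlapped at the top, followed by Osmr at 520 ± 65.4 and by Socs3 (228 ± 68.9), Lifr (200 ± 17.4) and Il6 (197 ± 86.0), each overlapping the next. Il6ra stood at 101 ± 21.9, overlapping Il6, and Lif, Osm and Il11 at 22.9, 17.6 and 16.3. In PKM2-/- hearts Il6st was at 896 ± 54.3, Il11ra1 at 793 ± 78.6, Osmr at 610 ± 45.3, Socs3 at 504 ± 139, Il6 at 350 ± 160, Lifr at 182 ± 20.2 and Il6ra at 153 ± 6.93, and here Il6 lay above Lifr without overlap. Il6st overlapped Il11ra1, and Socs3 overlapped both Osmr and Il6. After sham Osmr and Lifr overlapped in both genotypes, at 407 and 381 per kilobase in PKM2fl/fl and 456 and 409 in PKM2-/- hearts.

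Other ligands of the family were measured as well. Ctf1, which encodes the heart cytokine cardiotrophin 1, fell from 98.1 to 31.0 in PKM2fl/fl (adjusted p = 0.000214) and from 83.0 to 22.4 in PKM2-/- hearts (adjusted p = 7.6e-05). Ctf2, its paralog, fell in PKM2-/- hearts (19.4 to 8.04, adjusted p = 0.0401) and had means of 26.1 and 10.8 in PKM2fl/fl hearts (adjusted p = 0.136). Ebi3, a subunit of interleukin 27, differed by 1.44 ± 0.82 (adjusted p = 0.159) in PKM2fl/fl hearts. Of the 5 ligands tested 1 rose and 2 fell in PKM2-/- hearts. Scaled to total reads, 2 rose and 1 fell there. With the loci that share sequence with ribosomal RNA left out of the totals, 1 rose and 1 fell.

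Of 5 other receptor chains 3 were tested. Cntfr, the ciliary neurotrophic factor receptor, fell in PKM2-/- hearts after MI (112 to 60.0 normalized counts, adjusted p = 0.0131). It differed by -0.16 in PKM2fl/fl hearts (adjusted p = 0.681), and Il27ra did not pass in either. The fall of Cntfr was lost with scaling to total reads, where 0 of the 3 rose and 0 fell in PKM2-/- hearts. With the loci that share sequence with ribosomal RNA left out of the totals, 1 rose and 0 fell. Il31ra passed in PKM2fl/fl hearts (3.83 ± 1.05, adjusted p = 0.00665), with overlapping groups and means of 11012 and 130370 normalized counts, far above any family member. Across the 16 libraries its level followed that of CT010467.1, counted here among the loci that share sequence with ribosomal RNA (Pearson's r = 0.991 on the log2 scale, over libraries of unequal ribosomal content), and no receptor level is read from it.

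Of 12 JAK-STAT signalling genes, which carry the signal inside the cell, 5 rose and 3 fell after MI in each genotype, while 24.8% of all genes rose and 25.3% fell in PKM2fl/fl and 28.7% rose and 28.1% fell in PKM2-/- hearts, and 1 of the 12 was differentially expressed. Scaled to total reads, 2 rose and 1 fell in PKM2fl/fl, and 5 rose and 0 fell in PKM2-/- hearts. Ptpn6, a phosphatase of blood cells, rose by 1.85 ± 0.21 (adjusted p = 6.48e-06) in PKM2fl/fl and by 2.17 ± 0.21 in PKM2-/- hearts. Jak2 rose by 0.91 ± 0.11 and 0.87 ± 0.11 and the adaptor Shc1 by 0.67 ± 0.12 and 0.90 ± 0.12, while Ptpn11, the phosphatase SHP2 that docks on gp130, fell by 0.68 (SE 0.13) and 0.83 (SE 0.13). Stat3 itself differed by 0.19 ± 0.13 (adjusted p = 0.217) and 0.18 ± 0.13 (adjusted p = 0.247), and was named after its value was seen.

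Among 9 other negative regulators 1 rose and 3 fell in PKM2fl/fl and 3 fell in PKM2-/- hearts. Of all genes 24.8% rose and 25.3% fell in PKM2fl/fl, and 28.7% rose and 28.1% fell in PKM2-/- hearts. Scaled to total reads, 0 rose and 1 fell in PKM2fl/fl, and 0 rose and 0 fell in PKM2-/- hearts. With the loci that share sequence with ribosomal RNA left out of the totals, 1 rose and 0 fell in PKM2fl/fl, and 3 rose and 1 fell in PKM2-/- hearts. Socs5 rose by 0.37 ± 0.10 in PKM2fl/fl hearts (adjusted p = 0.00574) and differed by 0.0015 in PKM2-/- hearts. Cish, which responds to STAT5, fell by 0.63 (adjusted p = 0.0362) and by 1.10 (adjusted p = 0.00098). Socs7 and Socs6 fell by 0.38 and 0.29 in PKM2fl/fl and by 0.47 and 0.49 in PKM2-/- hearts, where scaling to total reads turned their direction. Socs3 was the member of its family with the largest difference after MI in both genotypes.

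Of 20 genes known to respond to gp130 or STAT3 in other settings 18 were tested. After MI 9 rose and 1 fell in PKM2fl/fl hearts, and 11 rose in PKM2-/- hearts and none fell. Of all genes 24.8% and 28.7% rose. Scaled to total reads, 7 rose and 1 fell in PKM2fl/fl, and 16 rose and 0 fell in PKM2-/- hearts. With the loci that share sequence with ribosomal RNA left out of the totals, 11 rose and 1 fell in PKM2fl/fl, and 16 rose and 0 fell in PKM2-/- hearts. Timp1, an inhibitor of matrix proteases, rose from 142 to 2756 normalized counts in PKM2fl/fl (4.57 ± 0.48) and from 181 to 3960 in PKM2-/- hearts (4.51 ± 0.48). Ccl2, a monocyte attractant, rose by 3.82 ± 0.54 in both, and Myc by 2.71 ± 0.28 and 2.11 ± 0.28. Bcl3 rose by 1.52 ± 0.26 in PKM2fl/fl hearts (adjusted p = 0.000204) and differed by 0.63 ± 0.26 in PKM2-/- hearts (adjusted p = 0.0516). Many of these genes also answer to other cytokines.

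The same list moved with sham surgery in PKM2-/- hearts, where 9 of 18 rose, 8 of them differentially expressed, while 3.48% of all genes rose. Examples are Myc (1.63 ± 0.31, adjusted p = 0.00777), Bcl3 (1.46 ± 0.29, adjusted p = 0.0103) and Cebpd (1.96 ± 0.22, adjusted p = 0.000439). No gene of the list passed in PKM2fl/fl hearts, though 11 of 18 had an unadjusted p under 0.05 in limma, against 8.81% of all genes. With total-count scaling 5 rose in PKM2fl/fl hearts, and 1 when rRNA-related loci were left out of the totals. In PKM2-/- hearts 12 and 9 did. Neutrophil markers rose in PKM2-/- hearts as well, 6 of 6 tested, from sums of 136 to 174 up to 1046 to 1339, and their part was not tested. Cebpd, a transcription factor of the acute phase, was the one gene of these lists called between genotypes: after MI it read a mean of 1204 normalized counts in PKM2-/- against 575 in PKM2fl/fl hearts (1.07 ± 0.20, adjusted p = 0.0312). With total-count scaling 5 of the response genes passed in that comparison, and 3 with the rRNA-related loci left out of the totals.

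**Figure D4:**
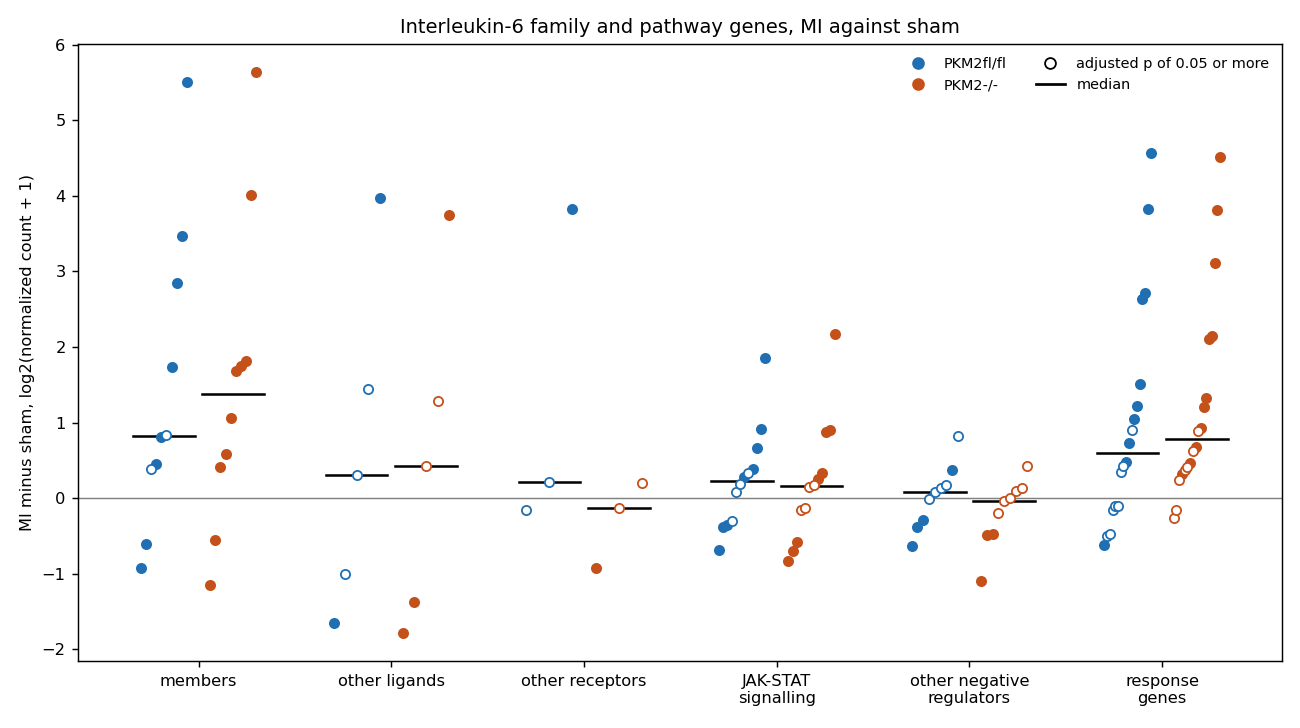
Difference between MI and sham hearts in log2(normalized count + 1) (vertical axis) for every tested gene of 6 lists, blue for PKM2fl/fl and orange for PKM2-/-, with filled points for an adjusted p under 0.05 and bars at the list medians. Members and response genes lie mostly above 0, and JAK-STAT genes and the other negative regulators lie on both sides. Il6, Lif and Osm passed the filter only through the MI libraries and had to lie above 0, so nothing is read from the members' place against other lists. The high receptor point in PKM2fl/fl hearts is Il31ra at 3.83.

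The genes whose log2 levels followed each member most closely over the 16 libraries were found by Pearson's r, a description over libraries that share groups. Il6 was followed by Ch25h (r = 0.982) and Rfc2 (0.972), Il6ra by Trpm2 (0.990) and Ifngr1 (0.985), Osmr by Mmp8 (0.981) and Casp4 (0.980), and Lifr by Foxo3 (0.980) and 2210408F21Rik (0.978). Il6st was followed by Maf (0.987) and Gm15655 (0.986), Socs3 by Gm45717 (0.988) and Ifitm2 (0.984), Lif by Gm21974 (0.979) and Myo9b (0.974), Osm by Gm19719 (0.977) and Ptgis (0.975), and Il11ra1 by Mrpl58 (0.981) and Park7 (0.976). Il11 had the weakest companions, Gm50250 (0.877) and Raet1e (0.822).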

How the data were processed

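RNA was extracted from left ventricles, depleted of rRNA and made into NEBNext Ultra II libraries that were sequenced in pairs. Per the labels and the study's methods, the authors used PRINSEQ for trimming, HISAT2 for alignment to mm10 and featureCounts for counts per gene; versions, strand setting and the handling of reads with several matches are not given in the sources used here. The deposited values are signal values, namely reads divided by a DESeq2 size factor, for all 16 libraries in 1 table, which also holds the authors' mean and their baseline fold change, error, statistic and p-values (not used).

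The value of 1 read was recovered for each library, and 100% of values were then whole within 0.01 reads. The members, the other lists and the alternatives were chosen with earlier results of these data known. limma 3.58.1 (R 4.3.3) was fitted with a trend to log2(normalized count + 1) of 20576 genes whose mean reached 10, as 1 fit of 6 groups, with Benjamini-Hochberg adjustment over all genes and contrasts between groups. Calls need an adjusted p under 0.05 and a 2-fold change. No p adjusted over the members alone is given. Exact two-sided permutation tests of 3 against 3 mice cannot go below 0.1 and of 2 against 2 not below 0.33, so they are not used for calls. Scripts were tested on simulated data.

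Named genes were all 10 members, the 4 genes of each list with the smallest p between MI and sham in PKM2fl/fl hearts, those called between genotypes, and the 2 genes most like each member; marker lists were used as sums. One gene that this rule names is not reported here. Alternatives were edgeR 4.0.16 with and without its filter, DESeq2 1.42.0, voom, other scalings, a pseudocount of 0.1, no filter, only the groups compared, a replicate block, no fold threshold, and each library left out. The labels do not say whether replicate numbers pair mice, and the values gave little sign of it. Of 36 pairs of libraries with the same number, 1 had deviations correlated above 0.1 (range -0.196 to 0.126). With 2 or 3 mice a group, this check cannot exclude a pairing or a shared batch. Libraries of 1 group differed by more than counting noise, with a chi-square of 15.4 to 576 per degree of freedom. Transcript lengths came from GENCODE M39 (GRCm39), and promoter windows from RefSeq (GRCm38.p6).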

Additional observations from a re-analysis of the deposited data

Results flagged for a closer look

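The Il6ra values of the genotypes lay in opposite directions at baseline and after MI, and neither difference passed (limma, adjusted p = 0.0695 after MI). Il6ra was flagged for this pattern, and the share of all genes with the pattern was not counted. An exact test of 2 against 2 baseline mice cannot go below 0.33. Both PKM2-/- baseline hearts lay below both PKM2fl/fl hearts, a difference of -0.34 ± 0.20 (SE) on the log2 scale, and all 3 PKM2-/- MI hearts lay above all 3 PKM2fl/fl hearts, a difference of 0.63 ± 0.16. The change in the genotype difference was tested after these values were seen: it was 0.97 ± 0.26 (95% interval 0.43 to 1.52), with an unadjusted p of 0.00174 and an adjusted p of 0.305 in limma, and 5 of all genes tested passed. For Socs3 the same change was 1.15 ± 0.57 (adjusted p = 0.561).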

How the results depend on the processing

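The 10 members' differences were recomputed under 28 or fewer alternatives for each comparison, and no called difference changed its direction. The 4 called members after MI in PKM2fl/fl hearts became 8 with no fold threshold, and ranged from 4 to 5 when single libraries were left out; the 7 in PKM2-/- hearts ranged from 5 to 7. Between genotypes after MI, 0 became 1 (Socs3) with DESeq2, with total-count scaling and with unfiltered edgeR. Unfiltered edgeR also gave 2 members in sham hearts (Il6 and Socs3), 1 for the difference of MI effects (Il6, lower) and 2 for sham against baseline in PKM2fl/fl hearts (Il6 and Socs3), each against 0. Leaving out single libraries gave 0 to 1 in the last comparison, the 1 being Socs3 without PKM2fl/fl sham 3. The 2 members called for sham against baseline in PKM2-/- hearts became 1 with voom and 4 with total-count scaling, and ranged from 2 to 3 without single libraries. The cause was not tested in any of these.

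Counts over all genes moved more: between genotypes after MI 85 genes became 6 to 508 under other settings and 11 to 634 without single libraries, at baseline 2 became 0 to 157, in sham hearts 1 became 0 to 305, and the difference of MI effects went from 0 to at most 304. Sham against baseline ran from 1 to 487 around 35 in PKM2fl/fl and from 183 to 1058 around 548 in PKM2-/- hearts. Without a fold threshold MI against sham gave 10299 and 11679 genes in place of 4832 and 5923. Scaling to total reads moved the share of higher calls after MI from 52.8% to 41.8% in PKM2fl/fl, from 50.2% to 78.4% in PKM2-/- hearts, and from 37.6% to 83.5% between genotypes.

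The replicate block was fitted although it is not known whether the numbers pair mice (3 of 16 libraries correlated best with their own number). It took away the Il11 call in PKM2-/- hearts (adjusted p = 0.0532) and changed no other member's call. Without a filter on low values Il11 (0.0724) and Osmr (0.0627) did not pass there. Il6, Osm and Lif had 13 reads or fewer in each baseline library and in most sham libraries, which limits their contrasts.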
